A study of Caenorhabditis elegans with 12 samples.

Results

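Whole Caenorhabditis elegans carrying a mutation in 1 of 2 lifespan pathways, labelled skn-1gf and daf-2lf, were compared directly with each other across all genes. RNA was sequenced from 3 libraries of each genotype, so 6 of the series' 12 libraries enter the comparison, and 3 wild-type (WT) and 3 double mutant (daf-2lf;skn-1gf) libraries contribute to the estimate of the spread and give reference levels. In worm nomenclature gf stands for gain of function and lf for loss of function. All genotypes were grown on NGM agar plates with OP50 bacteria as food, and RNA came from whole animals. The labels name no allele, growth temperature, stage or age at harvest, so a difference between the mutants cannot be told apart from a difference in stage. They also do not say whether the 3 libraries of a genotype came from separate cultures, and the p-values measure only the spread between these libraries, which may be technical.

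SKN-1 is a transcription factor related to the mammalian Nrf proteins. It turns on enzymes of glutathione synthesis and conjugation, above all in the intestine, and its level is kept low by WDR-23, the substrate receptor of a cullin ubiquitin ligase. DAF-2 is the worm's receptor for insulin-like peptides. Its signal, carried by PI3 kinase, PDK-1 and the AKT kinases, holds the FOXO factor DAF-16 out of the nucleus, and when the signal falls DAF-16 activates stress and metabolic genes while others are repressed. Loss of daf-2 can also direct larvae into dauer, a non-feeding, stress-resistant stage. The insulin pathway is known to restrain SKN-1 as well, so the mutations act on overlapping sets of genes.

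The table held 46936 genes, and 15575 had enough counts to test. Of these, 4961 (31.9%) were called at an adjusted p under 0.05 in edgeR's quasi-likelihood test, 2713 (17.4%) higher and 2248 (14.4%) lower in skn-1gf than in daf-2lf. Levels are given in counts per 1000000 counts (CPM), after scaling, in replicate order, and each log2 difference is skn-1gf minus daf-2lf. The median log2 difference of all tested genes was 0.04. The 3 skn-1gf libraries lay wholly above the 3 daf-2lf libraries for 3465 genes (22.2%) and wholly below them for 2746 (17.6%). Large differences were mostly rises, since 1501 called genes had fitted values at least 8-fold higher in skn-1gf and 348 at least 8-fold lower.

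Total counts in the 6 libraries ran from 16779245 (skn-1gf replicate 2) to 24070661 (daf-2lf replicate 1), and edgeR's estimate of the coefficient of variation between replicates beyond counting error was 23.9%. Replicate 1 of daf-2lf stood apart. Against the other daf-2lf libraries, it had more counts of genes under 500 bases, by a median log2 difference of 0.67, and fewer of genes over 4000 bases, by -1.35. Without that library, 6123 of 15840 tested genes (38.7%) were called, 3524 higher (22.2%) and 2599 lower (16.4%). They included 4575 of the 4961 genes, all in the same direction. With the 3 skn-1gf and the other 2 daf-2lf libraries fitted alone, 3831 of 14877 genes (25.8%) were called, of which 3444 were shared and 0 had the opposite direction.

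Gene lists are described below by how many tested members were called in each direction, to be read against 17.4% higher and 14.4% lower among all tested genes. They were drawn up with earlier results of these data known and carry no test of the list as a whole. When the 6 libraries were fitted without the other genotypes, the background was 12.1% higher and 9.09% lower of 14642 genes. When daf-2lf replicate 1 was also left out of that fit, the background was 14.7% higher and 11% lower of 14877 genes. When any single library other than daf-2lf replicate 1 was left out, 15.1% to 18.2% of all tested genes were higher and 10.3% to 14.7% lower. A count that moved by more than 1.5 times when 1 library was left out is given with that library, except counts of 2 or fewer, which a single gene moves that far.

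**Figure D1:**
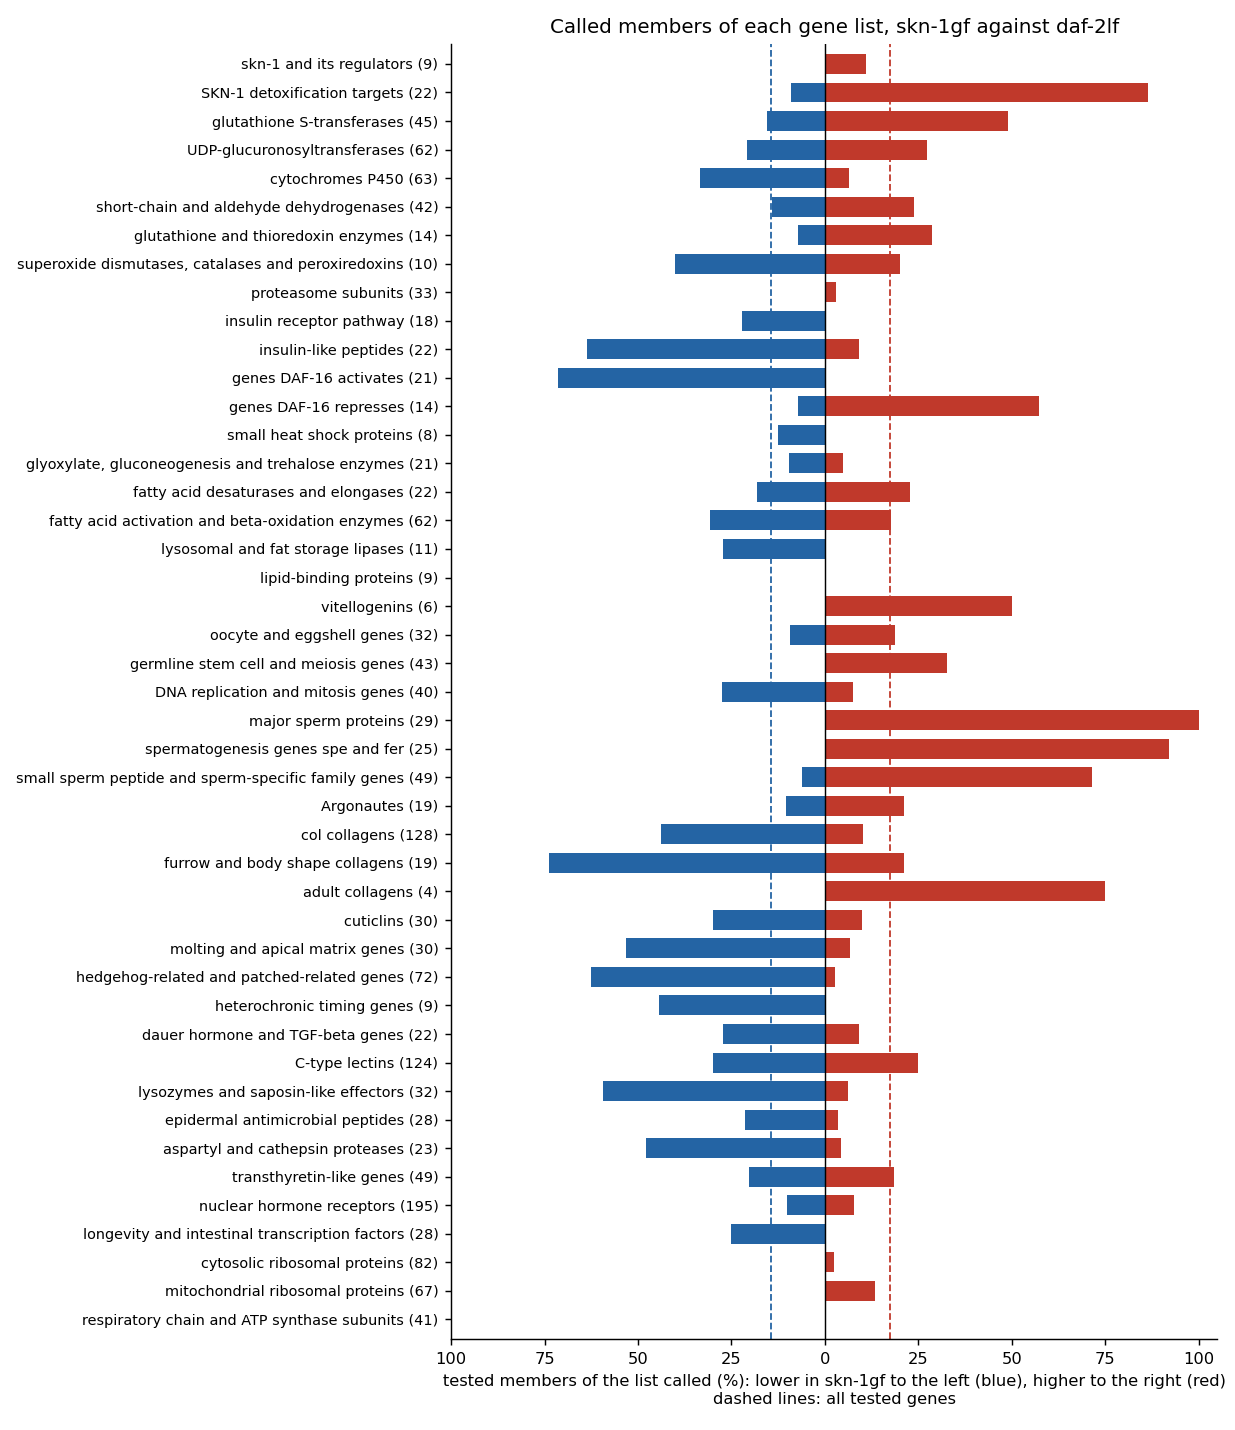
Share of each gene list's tested members called higher in skn-1gf (red, to the right) or lower (blue, to the left), in percent, with the number of tested genes in brackets; dashed lines mark all tested genes, 17.4% higher and 14.4% lower. Sperm and SKN-1 target lists extend to the right, and the lists of DAF-16 activated genes, insulin-like peptides, body shape collagens and hedgehog-related genes to the left.

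The RNA of the mutated genes differed little. The skn-1 gene (gene ID 177343, minus strand of chromosome IV from 5651039 to 5660384, WBcel235 as for all positions here) had 153, 147 and 147 CPM in skn-1gf and 167, 169 and 179 in daf-2lf. All daf-2lf libraries were above all skn-1gf libraries, and the log2 difference of -0.20 (SE 0.11, edgeR adjusted p = 0.2) was not called. For daf-2 (gene ID 175410, minus strand of chromosome III from 2994514 to 3040846) the levels were 93.1, 88.8 and 93.7 CPM in skn-1gf and 26.8, 125 and 126 in daf-2lf. The single low library was daf-2lf replicate 1, and the log2 difference was -0.01 (SE 0.40, edgeR adjusted p = 0.99) with it and -0.44 (edgeR adjusted p = 7.5e-04) without it. The FOXO gene daf-16 (gene ID 172981, plus strand of chromosome I from 10750498 to 10776703) had 146, 149 and 143 CPM in skn-1gf and 116, 208 and 190 in daf-2lf, again with replicate 1 the lowest daf-2lf library. Its log2 difference was -0.23 (SE 0.18, edgeR adjusted p = 0.37) with that library and -0.43 (edgeR adjusted p = 9.7e-04) without it. Since the labels do not say how the mutations act on RNA, these levels do not check the genotypes.

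Of 9 genes that encode SKN-1 and its regulators 1 was called, wdr-23, which encodes the SKN-1 degradation receptor. The gene (gene ID 172518, plus strand of chromosome I from 7596505 to 7602221) had 264, 293 and 269 CPM in skn-1gf and 29.8, 66.6 and 81.4 in daf-2lf. Every skn-1gf library exceeded every daf-2lf library, and the log2 difference was 2.22 (SE 0.28, edgeR adjusted p = 4.6e-05). Wild type averaged 54.4 CPM and the double mutant 266, so daf-2lf lay near wild type and skn-1gf near the double mutant.

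Among 22 detoxification genes known as SKN-1 targets, 19 were higher in skn-1gf and 2 were lower, with a median log2 difference of 1.91. The same counts were found without daf-2lf replicate 1. The standard SKN-1 reporter gst-4 (gene ID 177886, plus strand of chromosome IV from 10142225 to 10143099), a glutathione S-transferase gene, had 1180, 1423 and 1102 CPM in skn-1gf and 66.8, 34.1 and 41 in daf-2lf. The groups were more than 10-fold apart in every pair of libraries, and the log2 difference was 4.71 (SE 0.24, edgeR adjusted p = 1.9e-07). The gene of glutamate-cysteine ligase, gcs-1 (gene ID 174438, minus strand of chromosome II from 9035562 to 9038301), which catalyses the rate-limiting step of glutathione synthesis, had 571, 612 and 456 CPM in skn-1gf and 42.3, 159 and 153 in daf-2lf. Its groups did not overlap, with replicate 1 the lowest daf-2lf library. The log2 difference was 2.21 (SE 0.37, edgeR adjusted p = 4.8e-04), and 1.82 (edgeR adjusted p = 1.7e-06) without that library.

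The largest difference in the target list was at gst-30 (gene ID 191347, minus strand of chromosome II from 4933883 to 4935054), with 77, 100.2 and 81.7 CPM in skn-1gf and 0.351, 0.239 and 0.112 in daf-2lf. This transferase was near silence in daf-2lf, and the log2 difference was 8.47 (SE 0.40, edgeR adjusted p = 1.2e-07). The short-chain dehydrogenase gene dhs-8 had 29.2, 34.4 and 29.8 CPM in skn-1gf and 0.752, 1.55 and 1.51 in daf-2lf, again without overlap, and a log2 difference of 4.62 (SE 0.28, edgeR adjusted p = 4.1e-07). Wild type averaged 26.4 CPM of gst-4, 0.028 of gst-30 and 1.75 of dhs-8. Against wild type, 19 of the 22 targets were higher in skn-1gf, where 22.6% of all tested genes were, and 13 in daf-2lf, where 29.5% were. Both contrasts share the wild-type libraries. Summed over the list, levels were 989 to 1082 CPM in wild type, 1405 to 1995 in daf-2lf and 4514 to 5719 in skn-1gf. The 2 targets that were lower in skn-1gf were ctl-2, a peroxisomal catalase gene that DAF-16 is also known to activate, and K05B2.4.

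Whole detoxification families, which include some of these targets, such as gst-4 and gst-30, did not move as 1 block. Glutathione S-transferases, which couple glutathione to reactive compounds, had 22 of 45 tested members higher in skn-1gf and 7 lower, with a median log2 difference of 0.75. Close copies of these genes can share reads. In gst-25 the 3 daf-2lf libraries held 3 counts together and the skn-1gf level was 443-fold (95% interval 151 to 2150, counting error only) higher. Since gst-25 overlaps the sperm myosin gene spe-15 and the handling of strand is not stated, reads of these genes cannot be fully told apart. In raw counts gst-25 had 0, 0 and 2 in wild type and 794, 588 and 601 in the double mutant. The part of shared reads was not tested. UDP-glucuronosyltransferases, which attach sugars to small molecules, were called both ways, 17 of 62 higher and 13 lower. The most clearly separated was ugt-13, with 115, 121 and 119.7 CPM in skn-1gf and 14.2, 17.8 and 27.1 in daf-2lf and a log2 difference of 2.59 (SE 0.29, edgeR adjusted p = 1.8e-05). At a lower CPM, ugt-34 averaged 2.73 ± 0.328 CPM in skn-1gf and 0.168 ± 0.195 in daf-2lf (SD, n = 3, as for all such pairs), with a log2 difference of 4.002 (SE 0.49, edgeR adjusted p = 3.6e-05), or 5.51 without daf-2lf replicate 3. Likewise ugt-10 averaged 3.41 ± 0.31 CPM in skn-1gf and 0.246 ± 0.199 in daf-2lf, a log2 difference of 3.79 (SE 0.51, edgeR adjusted p = 8.8e-05), or 4.57 without that library.

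Cytochromes P450, oxidases of the first phase of detoxification, lay on the other side. Of 63 tested genes 21 were lower in skn-1gf and 4 higher, and 13 and 1 when the 6 libraries were fitted without the other genotypes. The gene cyp-13A11 had 0.0899, 0 and 0.124 CPM in skn-1gf and 0.752, 2.99 and 1.91 in daf-2lf, without overlap, and a log2 difference of -4.46 (SE 0.79, edgeR adjusted p = 7.7e-04). For cyp-35B1 the levels were 1.17, 0.894 and 0.787 CPM in skn-1gf and 4.26, 19.6 and 11.3 in daf-2lf, and the log2 difference was -3.61 (SE 0.50, edgeR adjusted p = 1.0e-04), or -3.02 without daf-2lf replicate 2. Its neighbour in name, cyp-35B2, had 2 counts in the 3 skn-1gf libraries and was 23.9-fold (95% interval 6.22 to 204, counting error only) higher in daf-2lf. The member with the highest CPM, cyp-25A2, averaged 41.1 ± 10.6 CPM in skn-1gf and 78 ± 21 in daf-2lf, a log2 difference of -0.93 (SE 0.23, edgeR adjusted p = 0.007).

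Dehydrogenases and the glutathione and thioredoxin system differed in fewer genes. Of 42 short-chain and aldehyde dehydrogenases 10 were higher and 6 lower, the latter 10 without daf-2lf replicate 3. The largest fall was at alh-13, which averaged 57 ± 4.12 CPM in skn-1gf and 311 ± 22 in daf-2lf, a log2 difference of -2.45 (SE 0.17, edgeR adjusted p = 7.0e-07). For dhs-2 the mean was 11.2 ± 1.76 CPM in skn-1gf and 45.4 ± 9.65 in daf-2lf, a log2 difference of -2.02 (SE 0.22, edgeR adjusted p = 1.4e-05). Of 14 glutathione and thioredoxin genes 4 were higher, a count of 8 without daf-2lf replicate 1 and of 2 without any 1 of daf-2lf replicates 2 and 3 and skn-1gf replicates 1 and 2. Beside gcs-1 these included E01A2.1, the modifier subunit of glutamate-cysteine ligase, which averaged 131 ± 27.6 CPM in skn-1gf and 56.1 ± 15.9 in daf-2lf, a log2 difference of 1.22 (SE 0.20, edgeR adjusted p = 4.5e-04). The thioredoxin gene trx-3 was lower, with 8.66 ± 2.63 CPM in skn-1gf and 35.5 ± 9.88 in daf-2lf and a log2 difference of -2.04 (SE 0.29, edgeR adjusted p = 1.4e-04), but other annotated genes cover its span.

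Antioxidant enzymes were split between the mutants. Of 10 superoxide dismutases, catalases and peroxiredoxins, sod-1 and prdx-2 were higher in skn-1gf and sod-3 and all 3 catalases were lower. The catalase genes ctl-1, ctl-2 and ctl-3 are neighbours on chromosome II and close in sequence, so shared reads are possible. For ctl-2 the levels were 107, 129 and 122.9 CPM in skn-1gf and 348, 343 and 264 in daf-2lf, with a log2 difference of -1.41 (SE 0.14, edgeR adjusted p = 6.3e-06), and wild type, at 128 CPM, lay with skn-1gf. The log2 differences were -1.58 (SE 0.21, edgeR adjusted p = 8.3e-05) for ctl-1 and -1.48 (SE 0.37, edgeR adjusted p = 0.0076) for ctl-3. The cytosolic superoxide dismutase gene sod-1 had 323, 444 and 349 CPM in skn-1gf and 334, 217 and 198 in daf-2lf. Its groups overlapped through daf-2lf replicate 1, and the call (0.58, edgeR adjusted p = 0.034) was lost without skn-1gf replicate 2, daf-2lf replicate 2 or 3, or double mutant replicate 2. The peroxiredoxin gene prdx-2 averaged 1603 ± 281 CPM in skn-1gf and 791 ± 333 in daf-2lf, a log2 difference of 1.02 (SE 0.24, edgeR adjusted p = 0.0052).

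Proteasome subunits, which SKN-1 is known to induce when the proteasome is impaired, were called in 1 of 33 cases. This was rpn-6.2, with 20.1, 14.5 and 27.2 CPM in skn-1gf and 4.62, 3.59 and 4.43 in daf-2lf and a log2 difference of 2.29 (SE 0.22, edgeR adjusted p = 5.9e-06). Without daf-2lf replicate 3, 5 subunits were called lower in skn-1gf. Wild type averaged 31.9 CPM of rpn-6.2, above both mutants.

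**Figure D2:**
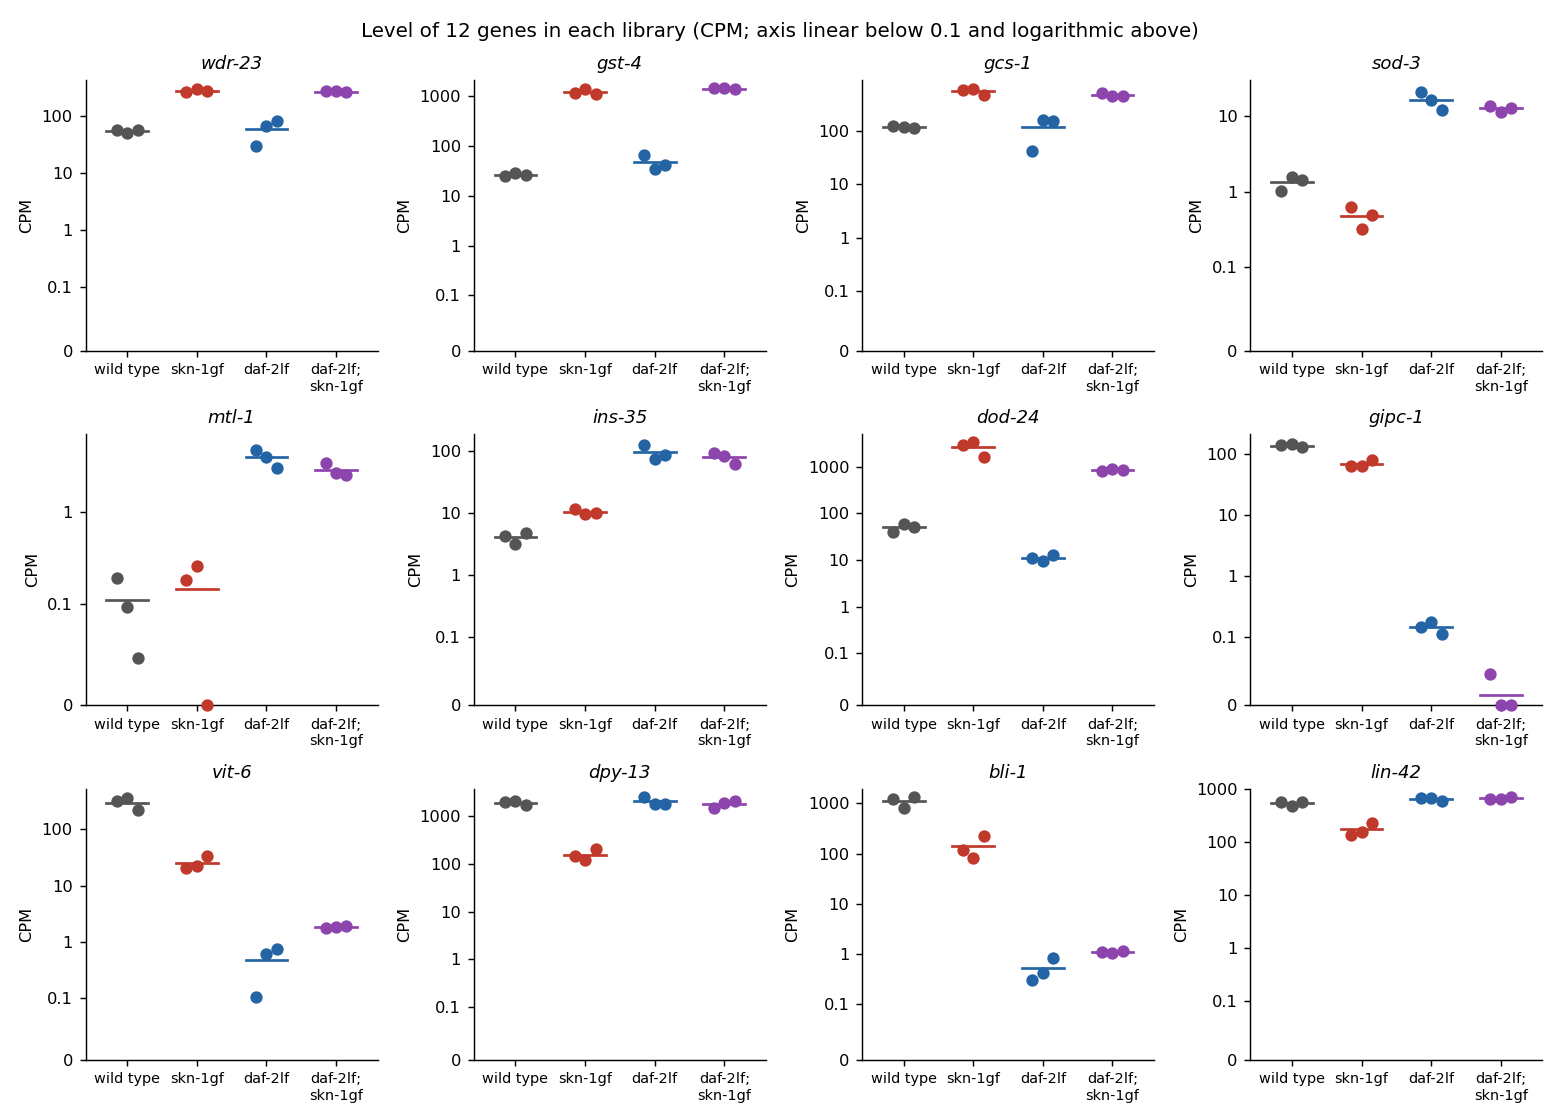
Level of 12 genes in every library (CPM; the axis is linear below 0.1 and logarithmic above), with replicates 1, 2 and 3 from left to right in each genotype and a bar at the mean. For wdr-23, gst-4 and gcs-1 the skn-1gf and double mutant libraries are high, for sod-3, mtl-1 and ins-35 both daf-2lf genotypes are high, and for gipc-1, vit-6 and bli-1 the skn-1gf libraries lie between wild type and the daf-2lf genotypes.

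On the insulin side, genes that DAF-16 is known to activate were lower in skn-1gf for 15 of 21 tested members and higher for 0, with a median log2 difference of -1.41. Summed levels were 3601 to 4836 CPM in daf-2lf, 1779 to 1898 in skn-1gf and 2006 to 2297 in wild type. The usual DAF-16 reporter sod-3 (gene ID 181748, plus strand of chromosome X from 17092753 to 17094306), which encodes a mitochondrial superoxide dismutase, had 0.629, 0.319 and 0.497 CPM in skn-1gf and 20.8, 16.3 and 12.2 in daf-2lf. Every daf-2lf library was far above every skn-1gf library, and the log2 difference was -5.04 (SE 0.30, edgeR adjusted p = 3.9e-07). Wild type averaged 1.33 CPM, and the log2 difference from it was 3.63 (edgeR adjusted p = 5.0e-07) in daf-2lf and -1.41 (edgeR adjusted p = 0.0042) in skn-1gf. Another annotated gene overlaps most of sod-3 and may share its reads.

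The metallothionein gene mtl-1 (gene ID 179060, minus strand of chromosome V from 6691371 to 6691863) had 0.18, 0.255 and 0 CPM in skn-1gf and 4.82, 4.01 and 3.03 in daf-2lf. It was near silence in skn-1gf, with a log2 difference of -4.85 (SE 0.55, edgeR adjusted p = 2.1e-05), or -4.18 without skn-1gf replicate 3, the library with 0 counts. The small heat shock protein gene sip-1 had 5.35, 3.58 and 8.04 CPM in skn-1gf and 210.3, 120.3 and 187 in daf-2lf, a log2 difference of -4.92 (SE 0.32, edgeR adjusted p = 5.5e-07), and was the 1 gene called of 8 small heat shock proteins tested. For dod-3, named for its place downstream of DAF-16, the levels were 0.36, 0.383 and 0.373 CPM in skn-1gf and 10.9, 9.87 and 10.3 in daf-2lf, with a log2 difference of -4.78 (SE 0.26, edgeR adjusted p = 2.6e-07). In these 3 genes no library of one mutant overlapped the other. The member with the highest CPM, the glyoxylate shunt gene icl-1, averaged 400.4 ± 15.6 CPM in skn-1gf and 1000 ± 160.1 in daf-2lf, a log2 difference of -1.32 (SE 0.16, edgeR adjusted p = 4.2e-05).

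Of 14 genes that DAF-16 is known to repress 8 were higher in skn-1gf and 1 lower, and 5 were higher when the 6 libraries were fitted without the other genotypes. Their summed level was 3201 to 5630 CPM in skn-1gf, 1103 to 1256 in daf-2lf and 918 to 1032 in wild type. Against wild type 8 were higher and 3 lower in skn-1gf, and 5 were higher and 5 lower in daf-2lf. The median log2 difference was 1.403, or 1.13 with genes at 0 counts set to the level of 3 counts. The widest was dod-24 (gene ID 178245, minus strand of chromosome IV from 12940106 to 12941354), a CUB-like gene used as a reporter of intestinal immunity, with 3000, 3396 and 1644 CPM in skn-1gf and 10.9, 9.51 and 12.7 in daf-2lf. Its daf-2lf libraries were low and close together, and the log2 difference was 7.92 (SE 0.32, edgeR adjusted p = 6.1e-08). Wild type averaged 50.5 CPM, and the log2 difference from it was 5.73 (edgeR adjusted p = 2.5e-07) in skn-1gf and -2.19 (edgeR adjusted p = 1.7e-05) in daf-2lf, so the 2 mutants lay on opposite sides of wild type. The related dod-17 had 557, 712 and 356 CPM in skn-1gf and 10.3, 20.4 and 14.5 in daf-2lf, with a log2 difference of 5.17 (SE 0.31, edgeR adjusted p = 4.1e-07). The gut esterase gene ges-1 was the member that was lower in skn-1gf, at 49.1 ± 5.22 CPM in skn-1gf and 110.4 ± 25.5 in daf-2lf, a log2 difference of -1.17 (SE 0.17, edgeR adjusted p = 1.7e-04).

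In the receptor pathway itself 14 of 18 tested genes were not called. The called genes were 4 lower in skn-1gf and 0 higher, and 1 was lower when the 6 libraries were fitted without the other genotypes. Without daf-2lf replicate 1, 6 were lower and 1 higher. With the 3 skn-1gf and 2 daf-2lf libraries fitted alone, 6 were lower and 0 higher. The kinase gene pdk-1 had 7.64, 7.73 and 8.62 CPM in skn-1gf and 25.1, 27.4 and 21.7 in daf-2lf and a log2 difference of -1.63 (SE 0.16, edgeR adjusted p = 5.8e-06). The kinase gene akt-2 averaged 29.7 ± 4.49 CPM in skn-1gf and 53.3 ± 14.5 in daf-2lf, a log2 difference of -0.84 (SE 0.20, edgeR adjusted p = 0.0057). Homologous to insulin receptor substrates, ist-1 averaged 6.55 ± 2.06 CPM in skn-1gf and 15 ± 6.32 in daf-2lf with overlapping groups, a log2 difference of -1.18 (SE 0.31, edgeR adjusted p = 0.012).

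The insulin-like peptides, the ligands of DAF-2, differed more. Of 22 tested genes 14 were lower in skn-1gf and 2 higher, with a median log2 difference of -1.53. With the 3 skn-1gf and 2 daf-2lf libraries fitted alone 8 were lower. Their summed level was 47.8 to 60.2 CPM in wild type, 78.7 to 86.5 in skn-1gf and 198 to 365 in daf-2lf. The one with the highest CPM, ins-35 (gene ID 180334, plus strand of chromosome V from 20375536 to 20376302), had 11.55, 9.39 and 9.98 CPM in skn-1gf and 127, 72.9 and 84.5 in daf-2lf, without overlap, and a log2 difference of -3.197 (SE 0.25, edgeR adjusted p = 1.5e-06). The largest fall was at ins-5, with 1.8, 2.04 and 3.19 CPM in skn-1gf and 45.6, 16.44 and 34.5 in daf-2lf and a log2 difference of -3.77 (SE 0.36, edgeR adjusted p = 5.8e-06). In the other direction ins-37 had 2.74, 2.36 and 4.43 CPM in skn-1gf and 0.0502, 0.179 and 0.168 in daf-2lf, a log2 difference of 4.57 (SE 0.42, edgeR adjusted p = 4.1e-06), and 5.99 CPM in wild type.

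**Figure D3:**
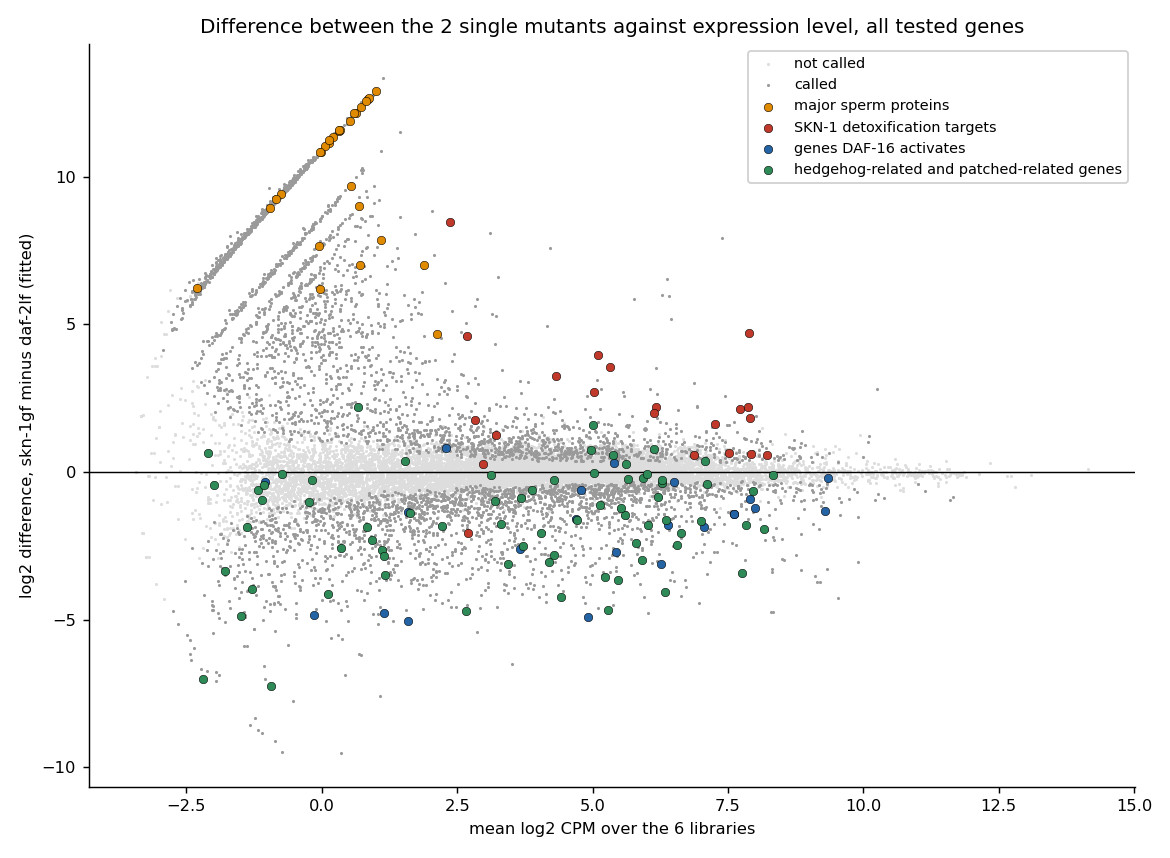
Fitted log2 difference between skn-1gf and daf-2lf (vertical axis) against mean log2 CPM over the 6 libraries (horizontal axis) for all 15575 tested genes, with 4 lists marked. The diagonal rows of points at the upper left, where most major sperm protein genes lie, are genes with 0 or very few counts in daf-2lf, whose fitted values depend on a prior count and are not measured sizes; SKN-1 targets lie mostly above 0, and DAF-16 activated and hedgehog-related genes mostly below it.

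Many sperm genes were far higher in skn-1gf, and the major sperm proteins were nearly absent from daf-2lf libraries. All 29 tested major sperm protein genes, which encode the cytoskeletal protein of crawling sperm, were higher in skn-1gf, and the file listed 31. So were 23 of 25 spe and fer genes, named for mutants with defective sperm, and 35 of 49 small sperm peptide and sperm-specific family genes. The spe and fer genes summed to 203 to 411 CPM in skn-1gf and 52 to 81.2 in daf-2lf. The small sperm peptide and sperm-specific family genes summed to 382 to 670.3 CPM in skn-1gf and 108 to 299 in daf-2lf, so RNA of some members was present there. Of these 49 genes 3 were lower, or 1 without skn-1gf replicate 1 or 2 and 6 without daf-2lf replicate 2. Genes silent in daf-2lf passed the filter on low counts only through other genotypes, so these shares are descriptions. In whole animals, fewer cells of a type and less RNA per cell cannot be told apart.

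In daf-2lf 21 of the 29 major sperm protein genes had 0 counts in every library. The summed level of the family was 1.38 to 1.63 CPM in daf-2lf, 398 to 779.6 in skn-1gf, 1591 to 1995 in wild type and 1.32 to 2.16 in the double mutant. The skn-1gf libraries therefore lay below wild type and far above both genotypes with daf-2lf. With genes at 0 set to the level of 3 counts per library, at most 0.179 CPM in a daf-2lf library, the median log2 difference of the family was 6.64. The genes are near-identical copies, and single values depend on how shared reads were assigned. For example, msp-40 had 34.3, 37.5 and 60.6 CPM in skn-1gf and 0 counts in daf-2lf, at least 246-fold higher, and by the same measure msp-19 was at least 209-fold and msp-57 at least 205-fold higher.

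Argonaute genes were among the other large rises. The Argonaute gene alg-4 (gene ID 176400, minus strand of chromosome III from 9887210 to 9891424), whose protein binds small RNAs in developing sperm, had 56.9, 23.8 and 100.6 CPM in skn-1gf and 0 counts in daf-2lf, at least 337-fold higher. Replicate 3 was the highest and replicate 2 the lowest skn-1gf library. Its partner alg-3 had 40.1, 17.1 and 78.8 CPM in skn-1gf and 0.452, 0.478 and 0.673 in daf-2lf, a log2 difference of 6.40 (SE 0.53, edgeR adjusted p = 2.0e-06), or 5.74 without skn-1gf replicate 3. Another Argonaute gene, wago-10, had 2 counts in the daf-2lf libraries together and was 915-fold (95% interval 253 to 7560, counting error only) higher in skn-1gf. Over 19 Argonautes 4 were higher and 2 lower, and 9 were higher without skn-1gf replicate 2.

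The sperm chromatin genes spch-1 and spch-3 had the next largest rises over daf-2lf among genes of moderate level. The gene spch-1 (gene ID 177877, minus strand of chromosome IV from 10110818 to 10111541) had 56.3, 52 and 103 CPM in skn-1gf and 1 count in daf-2lf, and was 4000-fold (95% interval 717 to 158000, counting error only) higher. For spch-3 the daf-2lf libraries also held 1 count and the ratio was 2590-fold (95% interval 464 to 102000, counting error only). Both genes were lower in skn-1gf than in wild type. In raw counts spch-1 had 5411, 4508 and 3824 in wild type and 1253, 815 and 2482 in skn-1gf. For spch-3 wild type had 3538, 2902 and 2420 and skn-1gf 677, 542 and 1727. The sperm-specific family gene ssq-2 had 32.3, 18.9 and 85.9 CPM in skn-1gf and 0.1, 0.0598 and 0.168 in daf-2lf, a log2 difference of 8.63 (SE 0.69, edgeR adjusted p = 1.7e-06), or 7.79 without skn-1gf replicate 3, and ssq-1 was 697-fold (95% interval 238 to 3380, counting error only) higher. The PDZ domain gene gipc-1 (gene ID 175649, plus strand of chromosome III from 4870778 to 4872261) had 64.7, 63.7 and 80.8 CPM in skn-1gf and 0.15, 0.179 and 0.112 in daf-2lf. Its skn-1gf libraries were close together, the log2 difference was 8.84 (SE 0.30, edgeR adjusted p = 2.4e-08), and wild type averaged 139 CPM. The ADP/ATP carrier gene ant-1.4 had 43.8, 26.8 and 67.5 CPM in skn-1gf and 0.15, 0.12 and 0.224 in daf-2lf, with a log2 difference of 8.07 (SE 0.47, edgeR adjusted p = 3.3e-07). The uncharacterised F37A4.5 had 20.9, 21.3 and 36.8 CPM in skn-1gf and 0.0502, 0.12 and 0.0561 in daf-2lf, with a log2 difference of 8.38 (SE 0.52, edgeR adjusted p = 4.2e-07). Together with alg-4, gst-30 and the collagen gene bli-1, these 7 genes make up the 10 largest rises among protein-coding genes of moderate level.

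Genes of the other sperm lists gave lower bounds that varied with their level. At 0 counts in daf-2lf, spe-8 was at least 22.2-fold and spe-19 at least 14.7-fold higher in skn-1gf. Among short peptides of unknown function nsph-3.2 was at least 249-fold, nspd-1 at least 99.7-fold and sss-1 at least 93.3-fold higher. The sperm myosin gene spe-15 remained measurable in daf-2lf, with 46, 27.5 and 75.5 CPM in skn-1gf and 11.8, 17.3 and 15.8 in daf-2lf and a log2 difference of 1.73 (SE 0.30, edgeR adjusted p = 5.7e-04). It overlaps gst-25 and may share reads with it. Of 16 defining sperm markers 15 were higher in skn-1gf, and 4 were at 0 counts in all daf-2lf libraries. They included gsp-3, a sperm phosphatase gene that was at least 192-fold higher, and msd-4, an MSP domain gene that was at least 115-fold higher. The summed level of the 16 markers was 134 to 416 CPM in skn-1gf, 2.91 to 4.66 in daf-2lf and 622 to 696 in wild type, and their part in other differences between the mutants was not tested.

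For genes of meiosis and oocytes the counts called depended on single libraries. Of 43 germline stem cell and meiosis genes 14 were higher in skn-1gf and 0 lower. The count was 26 without skn-1gf replicate 2, 6 without skn-1gf replicate 3, 8 without daf-2lf replicate 2 and 5 when the 6 libraries were fitted without the other genotypes. The gene syp-1, of the synaptonemal complex that holds paired chromosomes together, had 22.7, 15.8 and 33.3 CPM in skn-1gf and 3.71, 5.38 and 10.8 in daf-2lf, without overlap, and a log2 difference of 1.85 (SE 0.35, edgeR adjusted p = 0.0012). For syp-4, of the same complex, the levels were 32.1, 20.1 and 50.8 CPM in skn-1gf and 3.26, 10.2 and 19.6 in daf-2lf. Its log2 difference of 1.65 (SE 0.48, edgeR adjusted p = 0.02) was not called without skn-1gf replicate 3 or daf-2lf replicate 2 and was 2.37 without daf-2lf replicate 3. The syp-4 call was also lost with the 2 genotypes fitted alone, with or without daf-2lf replicate 1. The largest, lab-1, a meiotic chromosome gene, averaged 2.17 ± 0.815 CPM in skn-1gf and 0.412 ± 0.219 in daf-2lf, a log2 difference of 2.37 (SE 0.46, edgeR adjusted p = 0.0016), and other annotated genes cover its span.

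Of 32 oocyte and eggshell genes 6 were higher in skn-1gf and 3 lower. Without skn-1gf replicate 2 there were 13 higher, without either skn-1gf replicate 3 or daf-2lf replicate 2 there were 2 higher, and without skn-1gf replicate 3 there were 6 lower. When the 6 libraries were fitted without the other genotypes edgeR called 0 higher, and with the 3 skn-1gf and 2 daf-2lf libraries alone 1. The eggshell gene perm-4 had 0.944, 0.255 and 2.98 CPM in skn-1gf and 0 counts in daf-2lf, at least 7.77-fold higher, with 58.5 CPM in wild type. Its close relative perm-2, whose span other genes cover, was at least 3.11-fold higher. The oocyte maturation gene oma-1 had 12.4, 6.58 and 22.7 CPM in skn-1gf and 5.82, 2.87 and 7.29 in daf-2lf. Its groups overlapped at 1 library, and the call (1.39, edgeR adjusted p = 0.018) was lost without skn-1gf replicate 3 or daf-2lf replicate 2. The oma-1 call was also lost with the 2 genotypes fitted alone, with or without daf-2lf replicate 1. The zinc finger gene moe-3 was lower in skn-1gf, at 15.6 ± 1.75 CPM in skn-1gf and 109 ± 30.4 in daf-2lf, a log2 difference of -2.81 (SE 0.22, edgeR adjusted p = 1.4e-06), and shares its span with other genes. Summed oocyte marker levels were 46.4 to 178 CPM in skn-1gf, 50.04 to 100.8 in daf-2lf and 449 to 618 in wild type.

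Yolk protein genes were low in both mutants, and 3 of them were lower in daf-2lf than in skn-1gf. Of 6 vitellogenins vit-1, vit-2 and vit-6 were higher in skn-1gf, and all 6 were lower than wild type in each mutant, as were 21% of all tested genes in skn-1gf and 22.9% in daf-2lf. For vit-6 (gene ID 177619, plus strand of chromosome IV from 8261157 to 8266459) the levels were 20.5, 22.5 and 33.3 CPM in skn-1gf and 0.1, 0.598 and 0.729 in daf-2lf, against 301 CPM in wild type. The groups were far apart, with a log2 difference of 5.76 (SE 0.43, edgeR adjusted p = 1.1e-06). For vit-1 they were 12.9, 7.47 and 20.6 CPM in skn-1gf and 1.1, 1.08 and 0.898 in daf-2lf, with 83.1 CPM in wild type and a log2 difference of 3.73 (SE 0.45, edgeR adjusted p = 3.2e-05). For vit-2 the daf-2lf libraries held 3 counts together, and the skn-1gf level was 98.4-fold (95% interval 33.4 to 479, counting error only) higher. These genes are close copies in part, so reads can be shared.

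Genes of DNA replication and mitosis were called lower in skn-1gf more often than higher. Of 40 tested, 11 were lower in skn-1gf and 3 higher, with 18 lower without skn-1gf replicate 3, 7 without skn-1gf replicate 1 and 3 when the 6 libraries were fitted without the other genotypes. The gene rnr-1, of the ribonucleotide reductase that makes DNA precursors, had 60.9, 43.1 and 78.6 CPM in skn-1gf and 218, 179 and 175 in daf-2lf, without overlap, and a log2 difference of -1.65 (SE 0.20, edgeR adjusted p = 3.5e-05). Its partner subunit gene rnr-2 averaged 49 ± 2.27 CPM in skn-1gf and 132 ± 30.6 in daf-2lf, a log2 difference of -1.43 (SE 0.18, edgeR adjusted p = 4.3e-05). The cyclin gene cyb-2.2 was higher in skn-1gf, at 5.4 ± 1.94 CPM in skn-1gf and 2.09 ± 0.18 in daf-2lf, a log2 difference of 1.38 (SE 0.27, edgeR adjusted p = 0.0016). In the somatic gonad and vulva 2 of 13 markers were higher and 1 lower. The gap junction gene inx-8 of the gonadal sheath averaged 7.51 ± 2.24 CPM in skn-1gf and 2.22 ± 0.618 in daf-2lf, a log2 difference of 1.77 (SE 0.31, edgeR adjusted p = 6.4e-04). The forkhead gene fkh-6, which overlaps other genes, averaged 7.51 ± 2.65 CPM in skn-1gf and 0.713 ± 0.229 in daf-2lf, a log2 difference of 3.39 (SE 0.38, edgeR adjusted p = 1.9e-05). The Notch ligand gene lag-2 averaged 0.348 ± 0.176 CPM in skn-1gf and 1.52 ± 0.809 in daf-2lf, a log2 difference of -2.05 (SE 0.45, edgeR adjusted p = 0.0036).

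**Figure D4:**
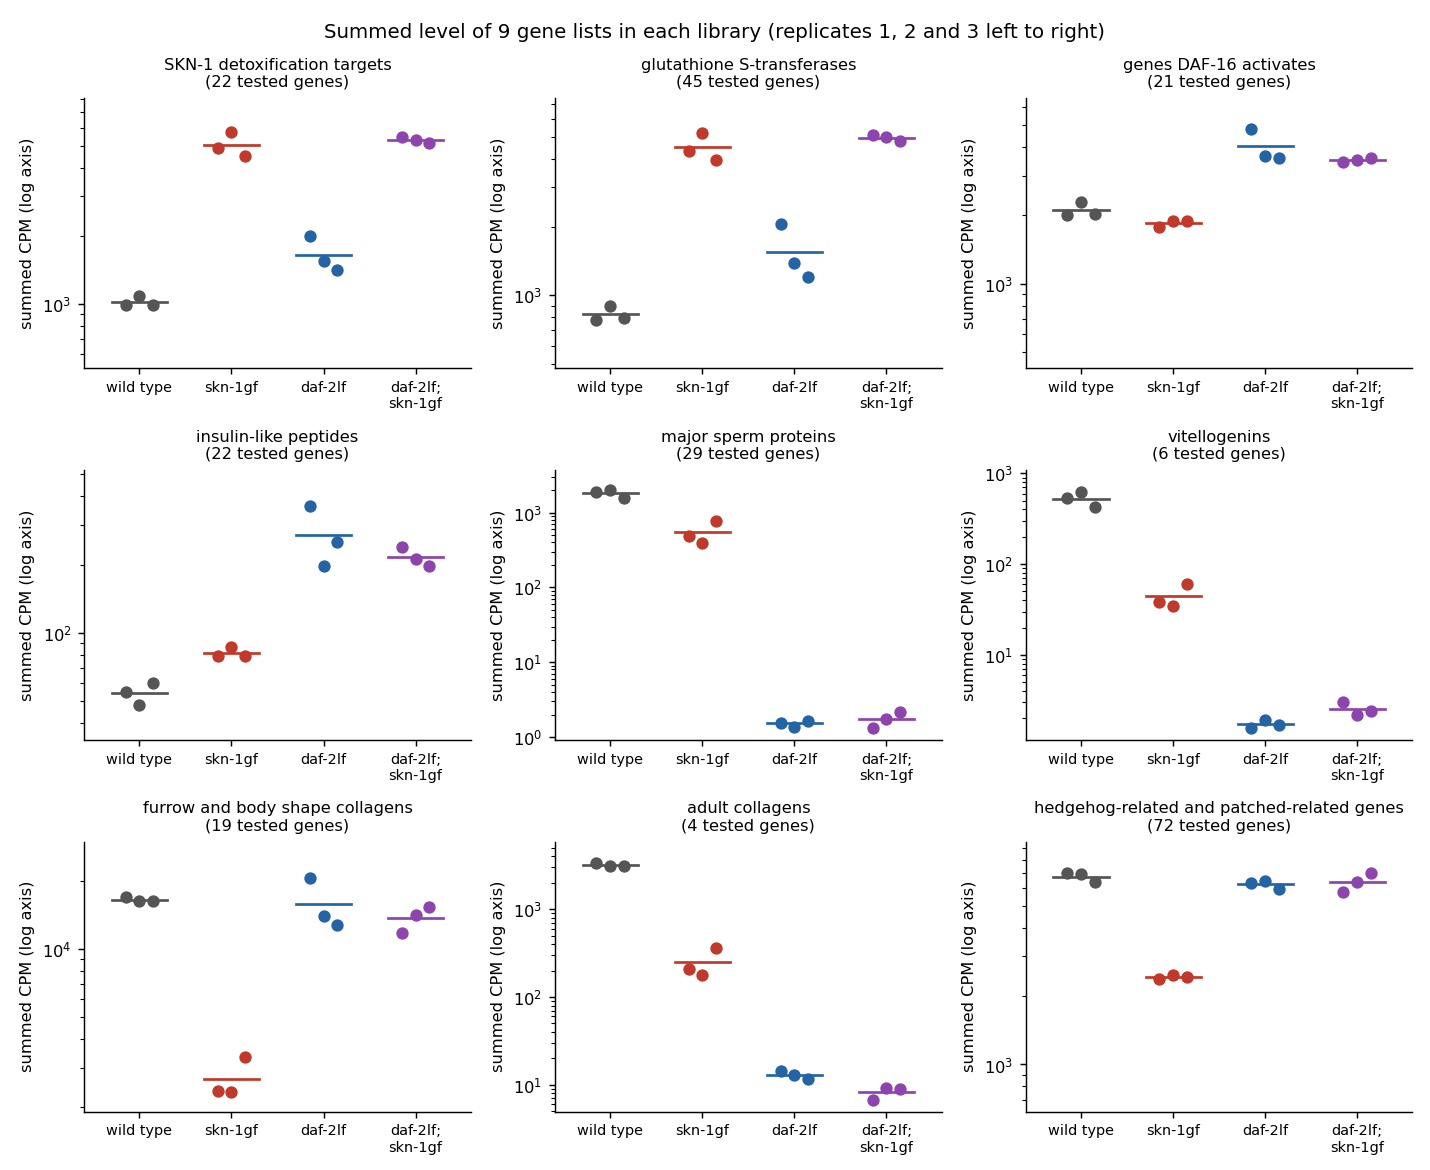
Summed CPM of 9 gene lists in each library (log axis), with replicates 1, 2 and 3 from left to right in each genotype and a bar at the mean. The skn-1gf libraries are high with the double mutant for SKN-1 targets, lowest of the 4 genotypes for body shape collagens and hedgehog-related genes, and between wild type and the daf-2lf genotypes for major sperm proteins, vitellogenins and adult collagens.

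Cuticle genes separated the mutants in both directions. The cuticle is an extracellular coat of collagens and cuticlins that the epidermis makes anew at each molt, with members particular to a stage. Of 19 furrow and body shape collagens 14 were lower in skn-1gf and 4 higher. Their summed level was 2335 to 3341 CPM in skn-1gf, 12760 to 20600 in daf-2lf and 16260 to 16960 in wild type. The collagen gene dpy-13 (gene ID 177187, plus strand of chromosome IV from 4235614 to 4236710) had 146, 123 and 208 CPM in skn-1gf and 2615, 1843 and 1800 in daf-2lf. The groups were far apart, with a log2 difference of -3.72 (SE 0.24, edgeR adjusted p = 6.0e-07), and wild type, at 1939 CPM, lay with daf-2lf. The collagen gene sqt-3 had 282, 314 and 419 CPM in skn-1gf and 3693, 2553 and 2157 in daf-2lf, a log2 difference of -3.05 (SE 0.22, edgeR adjusted p = 9.4e-07). For rol-6 the levels were 104.6, 93.8 and 113 CPM in skn-1gf and 1489, 816 and 753 in daf-2lf, a log2 difference of -3.30 (SE 0.26, edgeR adjusted p = 1.5e-06). The furrow collagen gene dpy-7 averaged 216 ± 33 CPM in skn-1gf and 441 ± 122 in daf-2lf, and its call (-1.03, edgeR adjusted p = 0.021) was lost without skn-1gf replicate 1 or 2 or daf-2lf replicate 1.

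The blister collagens, which form struts of the adult cuticle, were higher in skn-1gf. The collagen gene bli-1 (gene ID 174653, plus strand of chromosome II from 10708960 to 10712156) had 118, 81.8 and 223 CPM in skn-1gf and 0.301, 0.418 and 0.842 in daf-2lf. The log2 difference was 8.08 (SE 0.49, edgeR adjusted p = 4.1e-07), and wild type averaged 1131 CPM, far above both. For bli-2 the levels were 84.4, 90.8 and 128 CPM in skn-1gf and 12.64, 11.4 and 10.6 in daf-2lf, with a log2 difference of 3.13 (SE 0.21, edgeR adjusted p = 6.2e-07). For bli-6 they were 46.5, 48.7 and 86.3 CPM in skn-1gf and 2.31, 1.61 and 0.729 in daf-2lf, again without overlap, a log2 difference of 5.27 (SE 0.38, edgeR adjusted p = 8.7e-07). The adult collagen gene col-63 had 3.87, 4.34 and 10.9 CPM in skn-1gf and 0.552, 0.239 and 0 in daf-2lf and a log2 difference of 4.53 (SE 0.63, edgeR adjusted p = 1.1e-04), or 3.88 without skn-1gf replicate 3 and 5.76 without daf-2lf replicate 1. With bli-1 and bli-2 it made up the 3 of 4 tested adult collagens called, all higher in skn-1gf.

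Of 128 tested col collagens 56 were lower in skn-1gf and 13 higher, or 20 higher without wild type replicate 3, with a median log2 difference of -0.63. Of the 128 genes 10 had 0 counts in every skn-1gf library. Genes silent in skn-1gf passed the filter on low counts only through other genotypes, so these shares are descriptions. Close copies in this family can share reads. The family's largest differences were at genes with almost no counts in skn-1gf, among them genes known from dauer larvae. The dauer collagen gene col-2 had 0 counts in skn-1gf and 0.752, 4.66 and 2.19 CPM in daf-2lf, at least 13.2-fold higher against a floor of 0.192 CPM per skn-1gf library. The dauer cuticlin gene cut-1 likewise had 0 counts in skn-1gf and 0.953, 4.48 and 2.58 CPM in daf-2lf, at least 14-fold higher. In both genes daf-2lf replicate 2 was the highest library of that genotype. Wild type averaged 0 CPM of col-2 and 0.0566 of cut-1, and the double mutant 12.6 and 15.2. For col-36 the skn-1gf libraries held 1 count and the daf-2lf libraries had 11.3, 16.3 and 20.5 CPM, 984-fold (95% interval 176 to 38900, counting error only) higher in daf-2lf, and col-102 was at least 11.7-fold higher. Of 30 cuticlins 9 were lower and 3 higher, or 1 higher without daf-2lf replicate 3. The gene cut-2 averaged 82.2 ± 17.7 CPM in skn-1gf and 651 ± 251 in daf-2lf, a log2 difference of -2.99 (SE 0.27, edgeR adjusted p = 3.5e-06). For cut-6 the mean was 1.62 ± 0.148 CPM in skn-1gf and 9.42 ± 1.34 in daf-2lf, a log2 difference of -2.55 (SE 0.22, edgeR adjusted p = 2.5e-06).

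Genes of molting and of the epidermis were lower in skn-1gf as well. Of 30 molting and apical matrix genes 16 were lower and 2 higher, with a median log2 difference of -1.01. The molting gene mlt-10 had 29.1, 14.2 and 43.9 CPM in skn-1gf and 548, 338 and 401 in daf-2lf. No libraries overlapped, the log2 difference was -3.88 (SE 0.36, edgeR adjusted p = 4.4e-06), and wild type averaged 962 CPM. The patched-related gene ptr-18 averaged 21.8 ± 5.24 CPM in skn-1gf and 170.3 ± 9.35 in daf-2lf, a log2 difference of -2.97 (SE 0.21, edgeR adjusted p = 7.6e-07). For phg-1 the mean was 3.73 ± 0.876 CPM in skn-1gf and 28.4 ± 14.8 in daf-2lf, a log2 difference of -2.92 (SE 0.34, edgeR adjusted p = 2.8e-05).

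Of 72 tested hedgehog-related and patched-related genes, which encode secreted proteins and membrane proteins expressed largely in epidermis, 45 were lower in skn-1gf and 2 higher. The median log2 difference was -1.63, and summed levels were 2394 to 2477 CPM in skn-1gf, 5952 to 6440 in daf-2lf and 6389 to 6981 in wild type. The member with the highest CPM, grl-16, had 78, 71.2 and 53.7 CPM in skn-1gf and 928, 666 and 555 in daf-2lf and a log2 difference of -3.40 (SE 0.31, edgeR adjusted p = 4.1e-06). At low levels grl-25, with 1 count in skn-1gf, was 200-fold (95% interval 35.5 to 7960, counting error only) higher in daf-2lf, and grl-20, with 3 counts and overlapped by other genes, 31.1-fold (95% interval 10.3 to 154, counting error only) higher. Of 9 hypodermis markers 7 were lower and 1 higher. Beside the collagens above, the lower ones were bus-8, nhr-25 and lin-26. The glycosyltransferase gene bus-8 averaged 37.7 ± 3.4 CPM in skn-1gf and 216 ± 25.4 in daf-2lf, a log2 difference of -2.52 (SE 0.15, edgeR adjusted p = 3.9e-07). The receptor gene nhr-25 averaged 17.4 ± 3.35 CPM in skn-1gf and 41 ± 8.65 in daf-2lf, a log2 difference of -1.24 (SE 0.20, edgeR adjusted p = 2.9e-04). The epidermal fate gene lin-26 averaged 63.8 ± 3.94 CPM in skn-1gf and 98.9 ± 10.4 in daf-2lf, a log2 difference of -0.63 (SE 0.13, edgeR adjusted p = 0.002). Both bus-8 and lin-26 overlap other genes in part.

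Heterochronic genes, which time larval development, were lower in skn-1gf in 4 of 9 tested cases and higher in 0, and without daf-2lf replicate 1 in 6 and 1. The period-related gene lin-42 (gene ID 173503, minus strand of chromosome II from 1233236 to 1252359) had 136, 157 and 236 CPM in skn-1gf and 699, 674 and 612 in daf-2lf, without overlap, and a log2 difference of -1.91 (SE 0.19, edgeR adjusted p = 6.8e-06). For lin-41, a target of the let-7 microRNA that is also active in oocytes, the levels were 44.1, 35.3 and 51.4 CPM in skn-1gf and 134, 176 and 198 in daf-2lf, a log2 difference of -1.96 (SE 0.20, edgeR adjusted p = 8.0e-06). Wild type averaged 46.7 CPM of lin-41, near skn-1gf. The steroid receptor gene daf-12, which directs the choice between reproductive growth and dauer, averaged 69.1 ± 0.408 CPM in skn-1gf and 124 ± 34.9 in daf-2lf, a log2 difference of -0.84 (SE 0.19, edgeR adjusted p = 0.0041).

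In the dauer hormone and TGF-beta pathways 6 of 22 genes were lower and 2 higher in skn-1gf, and 10 lower without daf-2lf replicate 1. The TGF-beta ligand gene daf-7 had 3.96, 1.79 and 5.76 CPM in skn-1gf and 11.64, 8.37 and 17.1 in daf-2lf, a log2 difference of -1.67 (SE 0.35, edgeR adjusted p = 0.0028). The dauer hormone synthesis gene daf-36 was higher, at 31.1 ± 1.96 CPM in skn-1gf and 12.55 ± 4 in daf-2lf, a log2 difference of 1.31 (SE 0.21, edgeR adjusted p = 3.9e-04). The other higher gene, ncr-2, a cholesterol transporter homologue covered by other genes, averaged 11.9 ± 4.71 CPM in skn-1gf and 0.364 ± 0.191 in daf-2lf, a log2 difference of 5.01 (SE 0.42, edgeR adjusted p = 2.2e-06).

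Called genes of intestinal proteases and antibacterial proteins were mostly lower in skn-1gf. Of 23 tested aspartyl and cathepsin proteases 11 were lower and 1 higher, with a median log2 difference of -0.84. The higher one was asp-14 (gene ID 180917, minus strand of chromosome X from 6444185 to 6446664), with 3420, 4271 and 2392 CPM in skn-1gf and 589, 552 and 304 in daf-2lf. Its groups did not overlap, the log2 difference was 2.80 (SE 0.28, edgeR adjusted p = 8.0e-06), and wild type averaged 221 CPM. Among the lower ones cpr-1 had 131, 103 and 231 CPM in skn-1gf and 1036, 505 and 756 in daf-2lf, a log2 difference of -2.30 (SE 0.31, edgeR adjusted p = 8.4e-05). The intestinal cpr-6 averaged 305 ± 27.6 CPM in skn-1gf and 1154 ± 348 in daf-2lf, a log2 difference of -1.92 (SE 0.21, edgeR adjusted p = 1.8e-05). For cpr-2 the mean was 0.099 ± 0.104 CPM in skn-1gf and 1.72 ± 0.453 in daf-2lf, a log2 difference of -3.89 (SE 0.68, edgeR adjusted p = 6.3e-04), or -4.90 without skn-1gf replicate 3. The member with the highest CPM, asp-1, averaged 6039 ± 731 CPM in skn-1gf and 8687 ± 2379 in daf-2lf with overlapping groups and was not called (-0.52, edgeR adjusted p = 0.053).

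Of 32 lysozymes and saposin-like proteins, which attack bacterial walls and membranes, 19 were lower in skn-1gf and 2 higher, with a median log2 difference of -0.93. With the 3 skn-1gf and 2 daf-2lf libraries fitted alone 12 were lower. The gene spp-13 had 9.26, 8.17 and 8.2 CPM in skn-1gf and 113, 60.6 and 56.9 in daf-2lf, a log2 difference of -3.17 (SE 0.26, edgeR adjusted p = 2.0e-06). The member with the highest CPM, spp-5, had 600.1, 678 and 407 CPM in skn-1gf and 1747, 999.8 and 696 in daf-2lf, and its call (-1.03, edgeR adjusted p = 0.014) was lost without skn-1gf replicate 3. The spp-5 call was also lost with the 2 genotypes fitted alone, with or without daf-2lf replicate 1. At low levels spp-21, with 2 counts in skn-1gf, was 47.8-fold (95% interval 12.8 to 401, counting error only) higher in daf-2lf, and lys-10, also with 2 counts, 31.9-fold (95% interval 8.42 to 270, counting error only) higher. Of 28 epidermal antimicrobial peptides 6 were lower and 1 higher. The largest fall was at fip-6, which averaged 1.31 ± 0.122 CPM in skn-1gf and 12.9 ± 5.93 in daf-2lf, a log2 difference of -3.29 (SE 0.32, edgeR adjusted p = 6.3e-06). The caenacin genes followed. The gene cnc-3 averaged 6.87 ± 0.805 CPM in skn-1gf and 24.3 ± 8.13 in daf-2lf, a log2 difference of -1.83 (SE 0.23, edgeR adjusted p = 4.6e-05), and cnc-4 had a log2 difference of -1.80 (SE 0.22, edgeR adjusted p = 3.4e-05).

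C-type lectins, sugar-binding proteins with immune and reproductive members, were called both ways, 31 of 124 higher and 37 lower. With the 6 libraries fitted without the other genotypes 24 were lower. With the 3 skn-1gf and 2 daf-2lf libraries fitted alone 25 were higher and 24 lower. Those with the largest differences passed the filter on low counts only through other genotypes and were almost silent in daf-2lf. At 0 counts there, clec-123 was at least 140-fold higher in skn-1gf, and at 1 count each clec-73 was 1660-fold (95% interval 297 to 65400, counting error only) and clec-79 1130-fold (95% interval 202 to 44600, counting error only) higher. Transthyretin-like genes had 9 of 49 higher and 10 lower, with 16 higher without daf-2lf replicate 1 and 6 lower without skn-1gf replicate 1 or 3. In the fit of the 6 libraries without the other genotypes 3 were higher and 5 lower. With the 3 skn-1gf and 2 daf-2lf libraries alone 5 were higher and 3 lower. Of 12 intestine markers 3 were higher and 3 lower, the former 5 without daf-2lf replicate 1 and the latter 5 without daf-2lf replicate 3. The largest difference among them was at the ferritin gene ftn-1, with 2.07, 1.41 and 2.11 CPM in skn-1gf and 15.7, 17.2 and 17.7 in daf-2lf and a log2 difference of -3.16 (SE 0.25, edgeR adjusted p = 1.7e-06). Summed intestine marker levels were 10980 to 13470 CPM in skn-1gf and 11460 to 17940 in daf-2lf.

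Lipid and energy genes were called in both directions. Of 62 genes of fatty acid activation and beta-oxidation 19 were lower in skn-1gf and 11 higher. The largest differences were at genes with 0 counts in daf-2lf, the acyl-CoA dehydrogenase gene acdh-8 (at least 111-fold higher in skn-1gf) and the acyl-CoA synthetase family genes acs-18 (at least 63-fold) and acs-15 (at least 16.8-fold). These genes passed the filter on low counts only through other genotypes. In raw counts acdh-8 had 1488, 1226 and 1029 in wild type, above the 444, 194 and 655 in skn-1gf. In gluconeogenesis, pck-3 was also at 0 counts in daf-2lf and at least 76.3-fold higher, while pck-1, of the same phosphoenolpyruvate carboxykinase family, had 143, 161 and 172 CPM in skn-1gf and 531, 307 and 383 in daf-2lf and a log2 difference of -1.36 (SE 0.18, edgeR adjusted p = 7.9e-05). Of 22 desaturases, elongases and related genes 5 were higher and 4 lower, 10 higher without daf-2lf replicate 1 and 2 lower without skn-1gf replicate 1. The elongase gene elo-8 averaged 5.13 ± 0.896 CPM in skn-1gf and 0.0868 ± 0.103 in daf-2lf, a log2 difference of 5.73 (SE 0.53, edgeR adjusted p = 4.2e-06), or 7.22 without daf-2lf replicate 1, and elo-7, which another gene overlaps, was 523-fold (95% interval 93.6 to 20700, counting error only) higher. The desaturase gene fat-5 averaged 17.2 ± 2.26 CPM in skn-1gf and 112 ± 39.7 in daf-2lf, a log2 difference of -2.70 (SE 0.24, edgeR adjusted p = 3.2e-06).

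Lysosomal lipases that act in fasting were lower in skn-1gf. The 3 genes called of 11 lipases, all lower, were lipl-1, lipl-2 and lipl-3. The gene lipl-1 had 4.23, 5.55 and 3.44 CPM in skn-1gf and 23.1, 36.5 and 21.1 in daf-2lf, a log2 difference of -2.62 (SE 0.30, edgeR adjusted p = 2.3e-05). The gene lipl-3 averaged 2.54 ± 1.16 CPM in skn-1gf and 9.61 ± 3.54 in daf-2lf, a log2 difference of -1.95 (SE 0.34, edgeR adjusted p = 6.7e-04). For lipl-2 the mean was 4.72 ± 1.72 CPM in skn-1gf and 13.6 ± 6.05 in daf-2lf, a log2 difference of -1.53 (SE 0.40, edgeR adjusted p = 0.011), a call lost without daf-2lf replicate 2. Without daf-2lf replicate 3, 5 lipases were lower. Of 9 lipid-binding protein genes edgeR called 0 with all libraries and 2 higher without daf-2lf replicate 1, but 2 lower without daf-2lf replicate 2 and 1 lower without daf-2lf replicate 3.

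Few nuclear hormone receptors were called in either direction. Of 195 nuclear hormone receptors 15 were higher in skn-1gf and 20 lower, and 31 were lower without daf-2lf replicate 1 and 10 without skn-1gf replicate 1. When the 6 libraries were fitted without the other genotypes 6 were higher and 8 lower. With the 3 skn-1gf and 2 daf-2lf libraries fitted alone 7 were higher and 19 lower. The largest difference was at nhr-234, with 12.5, 18.2 and 15.1 CPM in skn-1gf and 0.0502, 0.538 and 0.393 in daf-2lf and a log2 difference of 5.57 (SE 0.44, edgeR adjusted p = 1.4e-06). The receptor gene nhr-265 averaged 12.2 ± 2.97 CPM in skn-1gf and 0.756 ± 0.37 in daf-2lf, a log2 difference of 4.02 (SE 0.65, edgeR adjusted p = 3.8e-04). For nhr-155 the mean was 0.606 ± 0.176 CPM in skn-1gf and 7.32 ± 0.64 in daf-2lf, a log2 difference of -3.57 (SE 0.33, edgeR adjusted p = 4.4e-06). Of 28 longevity and intestinal transcription factors 7 were lower and 0 higher. Without daf-2lf replicate 1 there were 10 lower, and 4 when the 6 libraries were fitted without the other genotypes. The Kruppel-like factor gene klf-2 averaged 0.138 ± 0.0813 CPM in skn-1gf and 1.64 ± 0.338 in daf-2lf, a log2 difference of -3.46 (SE 0.57, edgeR adjusted p = 4.5e-04). The FOXA factor gene pha-4, which specifies the pharynx, averaged 14.6 ± 1.59 CPM in skn-1gf and 27.9 ± 2.33 in daf-2lf, a log2 difference of -0.93 (SE 0.14, edgeR adjusted p = 1.8e-04).

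The 10 largest falls among protein-coding genes of moderate level were at sod-3, sip-1, dod-3 and 7 genes with little known of their role. The gene F56A4.3, which carries a glutathione S-transferase N-terminal domain in the deposited annotation, had 0.225, 0 and 0.124 CPM in skn-1gf and 37.5, 22.8 and 16.05 in daf-2lf. Its daf-2lf libraries were far above those of skn-1gf, with a log2 difference of -7.58 (SE 0.53, edgeR adjusted p = 2.4e-06), or -8.29 without skn-1gf replicate 1, and wild type had 0 CPM. For Y47D7A.15 the levels were 0.809, 1.53 and 1.24 CPM in skn-1gf and 143, 87.7 and 91.1 in daf-2lf, a log2 difference of -6.50 (SE 0.48, edgeR adjusted p = 1.1e-06), and wild type, at 330.3 CPM, was above both. The other 5 were dos-2, which encodes a protein related to Notch ligands, with a log2 difference of -5.03, Y39G8B.7, at -5.40, R11G11.6, at -5.14, Y47H9C.1, at -4.81, and K02E11.10, at -4.79.

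Translation and respiration genes were called mainly when daf-2lf replicate 1 was left out of the fit of all genotypes. Of 82 cytosolic ribosomal protein genes, with a median length of 521 bases, 2 were called, both higher in skn-1gf, and 36 were higher without that library. Of 67 mitochondrial ribosomal protein genes 9 were higher, and 41 without that library. Of 41 respiratory chain and ATP synthase subunits edgeR called 0, and 14 were higher without that library. With the 3 skn-1gf and the other 2 daf-2lf libraries fitted alone, only 3, 8 and 2 genes of these lists were higher. With all 6 libraries fitted without the other genotypes, 1 cytosolic and 0 mitochondrial ribosomal protein genes were higher. The called cytosolic genes were rpl-11.1, with 567 ± 94.6 CPM in skn-1gf and 320.1 ± 126 in daf-2lf and a log2 difference of 0.82 (SE 0.24, edgeR adjusted p = 0.018), a call lost without skn-1gf replicate 3, and rpl-42, which had 1 count in daf-2lf and was 84.3-fold (95% interval 14.8 to 3360, counting error only) higher. The mitochondrial gene mrpl-1 averaged 75.2 ± 8.2 CPM in skn-1gf and 47 ± 10.2 in daf-2lf, a log2 difference of 0.68 (SE 0.17, edgeR adjusted p = 0.007).

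The effect of leaving out that library followed gene length over the whole table. Of 1204 genes under 500 bases 273 (22.7%) were higher in skn-1gf and 171 (14.2%) lower with all libraries, and 388 and 140 without it. Of 735 genes of 4000 bases and over, 41 (5.58%) were higher and 66 (8.98%) lower with all libraries, and 66 and 178 without it. Among all tested genes 17.4% were higher and 14.4% lower, and 22.2% and 16.4% without it. In the fit of all genotypes, short genes thus gained calls of a higher level in skn-1gf. Long genes gained calls of a lower level there. Ribosomal protein genes gained calls of a higher level in a larger share than short genes did. Whether gene length accounts for their gain was not tested.

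**Figure D5:**
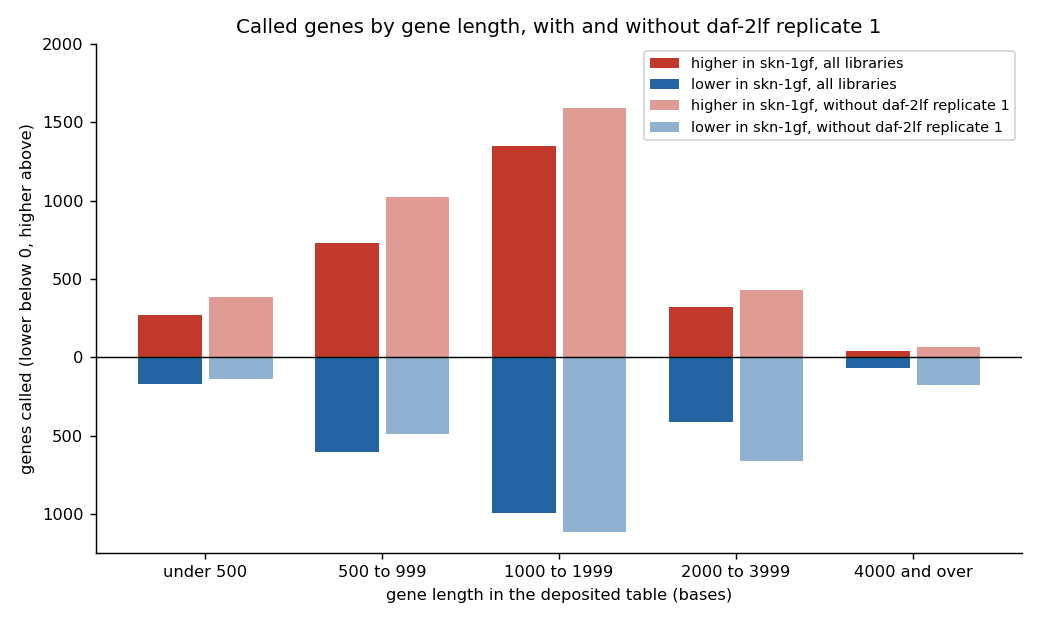
Number of genes called higher in skn-1gf (above 0) or lower (below 0) in 5 classes of gene length in bases, with all libraries (dark) and without daf-2lf replicate 1 (light). Without that library more genes are called higher in every class. Fewer genes under 1000 bases and more genes of 1000 bases and over are called lower.

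Few markers of nerve and muscle were called with all libraries. Of 15 neuron markers 1 was lower in skn-1gf, the neuropeptide-processing protease gene egl-3 (-0.45, edgeR adjusted p = 0.025), a call lost without any 1 of the skn-1gf libraries or daf-2lf replicate 2. Without daf-2lf replicate 1 there were 4 neuron markers lower, and without daf-2lf replicate 3 there were 5. Of 15 body wall muscle markers 1 was lower, the myosin gene myo-3 (-0.66, edgeR adjusted p = 0.01), lost without skn-1gf replicate 2, and 2 were higher without daf-2lf replicate 1. Of 11 pharynx markers 3 were lower, pha-4 and the gland genes phat-1 and phat-2. For phat-1 the levels were 0.719, 0.0639 and 1.78 CPM in skn-1gf and 15.5, 5.32 and 9.31 in daf-2lf, a log2 difference of -3.46 (SE 0.58, edgeR adjusted p = 5.0e-04), or -4.52 without skn-1gf replicate 3, and phat-2 averaged 3.83 ± 1.59 CPM in skn-1gf and 21 ± 7.6 in daf-2lf, a log2 difference of -2.44 (SE 0.31, edgeR adjusted p = 4.5e-05).

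By chromosome, 141 of 2193 tested X-linked genes (6.43%) were higher in skn-1gf and 431 (19.7%) lower, beside 17.4% and 14.4% of all tested genes. On chromosome IV 645 of 2669 tested genes (24.2%) were higher.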

How the data were processed

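The authors deposited raw read counts, whole numbers for each gene in the 12 libraries, with NCBI gene identifiers, RefSeq coordinates, gene lengths and biotypes, per the file headers. How reads were aligned and counted, whether strand was used, how reads matching several genes were treated and how gene length was computed is not given in the sources used here. The submitters' processing notes name the build ce10, but the chromosome versions in the deposited table are those of WBcel235, and 45476 of its 46936 genes had the coordinates of a RefSeq table of that assembly. No genome sequence was used here.

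Columns were assigned to libraries by the names in the sample labels. In R 4.3.3, edgeR 4.0.16 kept 15575 genes with filterByExpr at a minimum count of 10 (22468 genes had 0 counts throughout), scaled libraries by the trimmed mean of M-values (TMM), fitted 1 coefficient per genotype to all 12 libraries and tested skn-1gf minus daf-2lf with the quasi-likelihood F test. Genes with a Benjamini-Hochberg adjusted p under 0.05 were called. CPM are counts per 1000000 of the TMM-scaled total. A standard error is the log2 difference divided by the square root of F. Where a group held 0 counts, a lower bound was computed against 3 counts in the library where they weigh most, and where it held 1 to 3 counts the ratio of summed counts carries an exact 95% binomial interval. Bounds and intervals cover counting error only, since reads without molecular identifiers are not independent molecules. Library depth ran from 16779245 to 29346039 counts.

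The comparison, the 53 gene lists and the named genes were chosen with earlier results of these data known. Named genes come from a rule: the mutated and reporter genes, the 10 largest rises and 10 largest falls among called protein-coding genes of mean log2 CPM at least 1 without overlap, and per list the 3 called members with the largest difference, the member with the highest CPM and, in lists of 10 or fewer, any member. A gene that this rule names is not reported here. Alternatives were other scaling (RLE), filters, DESeq2 1.42.0, limma 3.58.1 voom with quality weights, the 2 genotypes alone, a replicate block, a gene length offset and each library left out. The procedure was tested on simulated counts. Of 200 genes changed there, 96% of those changed 4-fold and 48% of those changed 2-fold were recovered. The changed genes were drawn from those with a mean over 200 counts, and the simulated libraries had no trend with gene length. Recovery of genes with fewer counts, or with such a trend, was not measured. A gene not called may therefore still differ.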

Additional observations from a re-analysis of the deposited data

How the results depend on the processing

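With all 12 libraries 4961 genes were called, 2713 higher and 2248 lower in skn-1gf. These counts stayed within 1.5 times with RLE scaling, without a filter, with a minimum count of 50, with DESeq2 and with a gene length offset. With limma-voom quality weights 8412 genes were called, 4660 higher and 3752 lower, and with the 2 genotypes fitted alone 3105, 1774 higher and 1331 lower. The causes were not tested, and the second fit used fewer libraries. Leaving out single libraries gave 4029 to 6123 calls, 2401 to 3524 higher and 1628 to 2599 lower, the lowest without skn-1gf replicate 1 and the highest without daf-2lf replicate 1. Replicate numbers recur in both genotypes, but the correlations of same-numbered deviations were -0.0555, 0.192 and 0.296, so the numbers were not taken as pairs. With the replicate block 4761 genes were called, 2626 higher and 2135 lower. Of 148 named genes called, 124 were called under all 22 alternatives, another 11 in each of the 19 to 21 that tested them, and 0 changed sign. The 13 others include prdx-2, ist-1, akt-2 and mrpl-1, lost with the 2 genotypes fitted alone. In that fit the calls of sod-1, oma-1, syp-4, spp-5, rpl-11.1, myo-3 and egl-3 were lost too. Those of oma-1, syp-4 and spp-5 were also lost when daf-2lf replicate 1 was left out of it. The uncalled daf-2 log2 difference, -0.01, was 0.0099 with RLE scaling, 0.0096 with DESeq2, 0.0904 with the replicate block, 0.19 with the length offset, 0.20 with offset and block, and -0.44 to 0.28 over single libraries left out. It was called in 3 alternatives, with voom (-0.40) and with daf-2lf replicate 1 left out of the full fit or of the 2 genotypes alone (-0.45). Of 2332 counts of list members under alternatives, 255 moved by more than 1.5 times. Depth limits genes near 3 counts per library.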

Other observations

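Calls were also counted by protein domain, which the gene lists did not use, although the genes partly overlap those lists. Of 148 Pfam domains that the deposited table names in at least 15 tested genes, 7 had at least 60% of their genes called in 1 direction. Of 41 genes with a domain of unknown function that is found in nematode proteins, 40 were higher in skn-1gf and 0 lower. Of 88 genes with a protein-tyrosine phosphatase domain 70 were higher and 0 lower. Of 18 genes with a chymotrypsin family protease domain 16 were higher and 0 lower. Of 20 genes with a peptidase family M13 domain, the neprilysin-like proteases, which the table names as a pair of domains, 12 were higher, and the 1 lower gene was nep-1. The major sperm protein domain, found in 96 tested genes, 42 of them in the lists described, had 84 higher and 0 lower. The 1 domain past 60% in the other direction was the PAN domain, with 12 of 19 genes lower in skn-1gf and 0 higher, among them the cuticlin-like genes cutl-27 and cutl-28. Domains with shares under 60% but many lower genes included the astacin metalloproteases, with 16 of 29 lower and 1 higher, the ShK-like domain, with 33 of 66 lower and 5 higher, and the core histones, with 15 of 35 lower and 4 higher. Histone genes are near-identical copies that can share reads. These counts stand beside 17.4% higher and 14.4% lower among all tested genes, and no test of a domain was made. Genes silent in daf-2lf passed the filter on low counts only through other genotypes, so these shares are descriptions. An example is M70.3, with the domain of unknown function and 0 counts in every daf-2lf library. The domains and genes named here were chosen after their values were seen.

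Pseudogenes that were called were mostly higher in skn-1gf. Of 539 tested pseudogenes 181 were higher and 37 lower, and of 14899 tested protein-coding genes 2516 were higher and 2197 lower. Among all tested genes 17.4% were higher and 14.4% lower. Any pseudogene silent in daf-2lf passed the filter on low counts only through other genotypes. Pseudogenes can share reads with the genes they derive from.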
